A study of Bos taurus with 33 samples.

Results

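Cells adjust to low oxygen through the hypoxia-inducible factors (HIF). An oxygen-labile alpha subunit, encoded by HIF1A or EPAS1 (HIF-2 alpha), pairs with the stable beta subunit ARNT and turns on genes for vessel growth, glucose uptake and glycolysis. When oxygen is present the prolyl hydroxylases EGLN1, EGLN2 and EGLN3 mark the alpha subunit for the ubiquitin ligase that contains VHL, and the asparaginyl hydroxylase HIF1AN blocks its transactivation. VEGFA, the main angiogenic growth factor, and ADM, which encodes the vasodilator peptide adrenomedullin, are classical targets, and EGLN3 is itself induced by HIF as a feedback. The preovulatory follicle wall is vascularised, whereas the cumulus-oocyte complex inside it has no vessels of its own.

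These 10 transcripts (HIF1A, EPAS1, ARNT, EGLN1, EGLN2, EGLN3, VHL, HIF1AN, VEGFA and ADM) were taken from the 17543 genes listed in the oocyte and cumulus-cell (CC) tables and joined by Ensembl identifier. A symbol matched 7 of them, and EGLN1, EGLN2 and VEGFA, which have a blank symbol in both tables, were matched by gene name. The VHL row (ENSBTAG00000016101) carries the symbol VHL in the oocyte table and VHLL in the CC table. All 10 were listed in both tables. After a filter on low values, which asked for 5 CPM or more in 4 or more pools of oocytes and in 5 or more of CC, 9 of 10 were retained in oocytes, where EGLN1 was not, and 10 of 10 in CC.

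The samples were pools of 4 oocytes or of their CC from suckled Hereford and Angus crossbred beef cows whose follicle growth was synchronised with gonadotropin releasing hormone (GnRH) followed by prostaglandin F2 alpha. In the small (largest follicle 11.7 mm or less) and large (12.7 mm or more) classifications, cows without estrus received GnRH again to bring on the gonadotropin surge. In the spontaneous classification, cows came into estrus, had their own surge and received no second GnRH, so that the kind of surge differed from the other classes together with the display of estrus, and follicle size varied. Complexes were collected about 23 h after GnRH or estrus per the protocol, or about 20 h per the sample label. That interval was counted from GnRH in the small and large classes and from estrus in the spontaneous class. Its mean in the study was shortest in the spontaneous class, though the study reported no difference among classes. There were 6 small, 6 large and 4 spontaneous oocyte pools and 6, 6 and 5 CC pools. RNA was amplified before sequencing, and the deposited unit is CPM, the reads on a gene per 1000000 reads on all genes of that pool.

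Depth was 7664375 to 17934916 reads on genes in the oocyte pools and 1911600 to 5772431 in the CC pools, so that 3 reads corresponded to 0.167 to 0.391 CPM in oocytes and 0.520 to 1.57 CPM in CC. Depth went with class in CC, with medians of 3276812 (small), 4121436 (large) and 5126690 reads (spontaneous). Mitochondrially encoded genes took 0.846 to 5.0% of the reads in oocytes. In CC pools their share was 12.6 to 44.0% (small), 14.4 to 28.0% (large) and 14.3 to 22.1% (spontaneous). CC small replicate 3 had both the highest share and the fewest reads on genes. The labelled cell types carried their markers, as 10 oocyte markers together gave 10873 to 15275 CPM per oocyte pool, while the 6 of them listed for CC came to no more than 6.76 CPM per CC pool. The sum of 10 cumulus and granulosa markers was 11620 to 32288 CPM in CC pools and 452 to 3878 CPM in oocyte pools, the latter being 2.10 to 18.1% of the CC median. VCAN carried most of the sum in both (medians 15808 and 863 CPM), and HAS2 went against its list, with a median of 50.5 CPM in CC and 186 CPM in oocyte pools. The other 8 markers, TNFAIP6 and INHA among them, summed to 3029 to 8141 CPM in CC and to 10.4 to 379 CPM in oocyte pools, 0.231 to 8.42% of the CC median. Of these 8, FOXL2, AMHR2 and CYP19A1 were low in CC as well, with medians of 0.363, 0.923 and 5.83 CPM. CC large replicate 2 correlated least with the other CC pools (median r = 0.871).

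HIF1A was far higher in CC than in oocytes, and so was ADM, whereas EGLN3 was higher in oocytes. The 2 tables were scaled separately and no test was run between them. Levels are CPM, without gene length, and are compared here only for the same gene. HIF1A was at 366 to 833 CPM (median 533) in the 16 oocyte pools and at 2568 to 8847 CPM (median 4902) in the 17 CC pools. Every CC pool was above every oocyte pool, and the means of 559 ± 132 (SD) and 5083 ± 1375 CPM differed 9.09-fold. Pools failed to overlap for 36.3% of the 11431 genes compared, with every CC pool higher for 13.4% and every oocyte pool higher for 22.9%.

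The other alpha subunit did not share that pattern. EPAS1 was at 184 to 434 CPM in oocytes and 44.8 to 309 CPM in CC, so its ranges overlapped, and its mean was 2.28 times higher in oocytes (259 ± 63.0 against 114 ± 70.5 CPM). ARNT, the common partner, was at 0 to 15.1 CPM in oocytes and at 30.9 to 98.2 CPM in CC, without overlap. One oocyte pool had no ARNT read, and the ratio of the means was 13.2.

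Among the oxygen sensors only EGLN3 separated the cell types, and it did so in the direction opposite to HIF1A. EGLN3 was at 52.7 to 131 CPM in oocytes against 2.14 to 36.3 CPM in CC, a 6.67-fold difference of the means with every oocyte pool higher. EGLN1 (means 2.63 and 5.86 CPM in oocytes and CC), EGLN2 (12.0 and 22.3 CPM) and HIF1AN (7.0 and 8.32 CPM) overlapped, as did VHL (17.5 and 31.1 CPM).

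Both secreted targets had higher means in CC. ADM was at 29.7 to 131 CPM in oocytes and at 329 to 1015 CPM in CC, 7.83-fold apart and without overlap. VEGFA was at 0.0818 to 39.6 CPM in oocytes and 18.0 to 358 CPM in CC, with means of 8.47 and 67.5 CPM and ranges that overlapped. In all, 3 members were higher in every CC pool, 1 was higher in every oocyte pool and 6 overlapped, and these 4 kept their separation when both tables were scaled together by median of ratios. That scaling moved the median difference of all genes (log2, CC minus oocyte) from -0.15 to 0.19, and on it the log2 differences were 3.53 for HIF1A, 4.21 for ARNT, 3.31 for ADM and -2.55 for EGLN3.

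**Figure D1:**
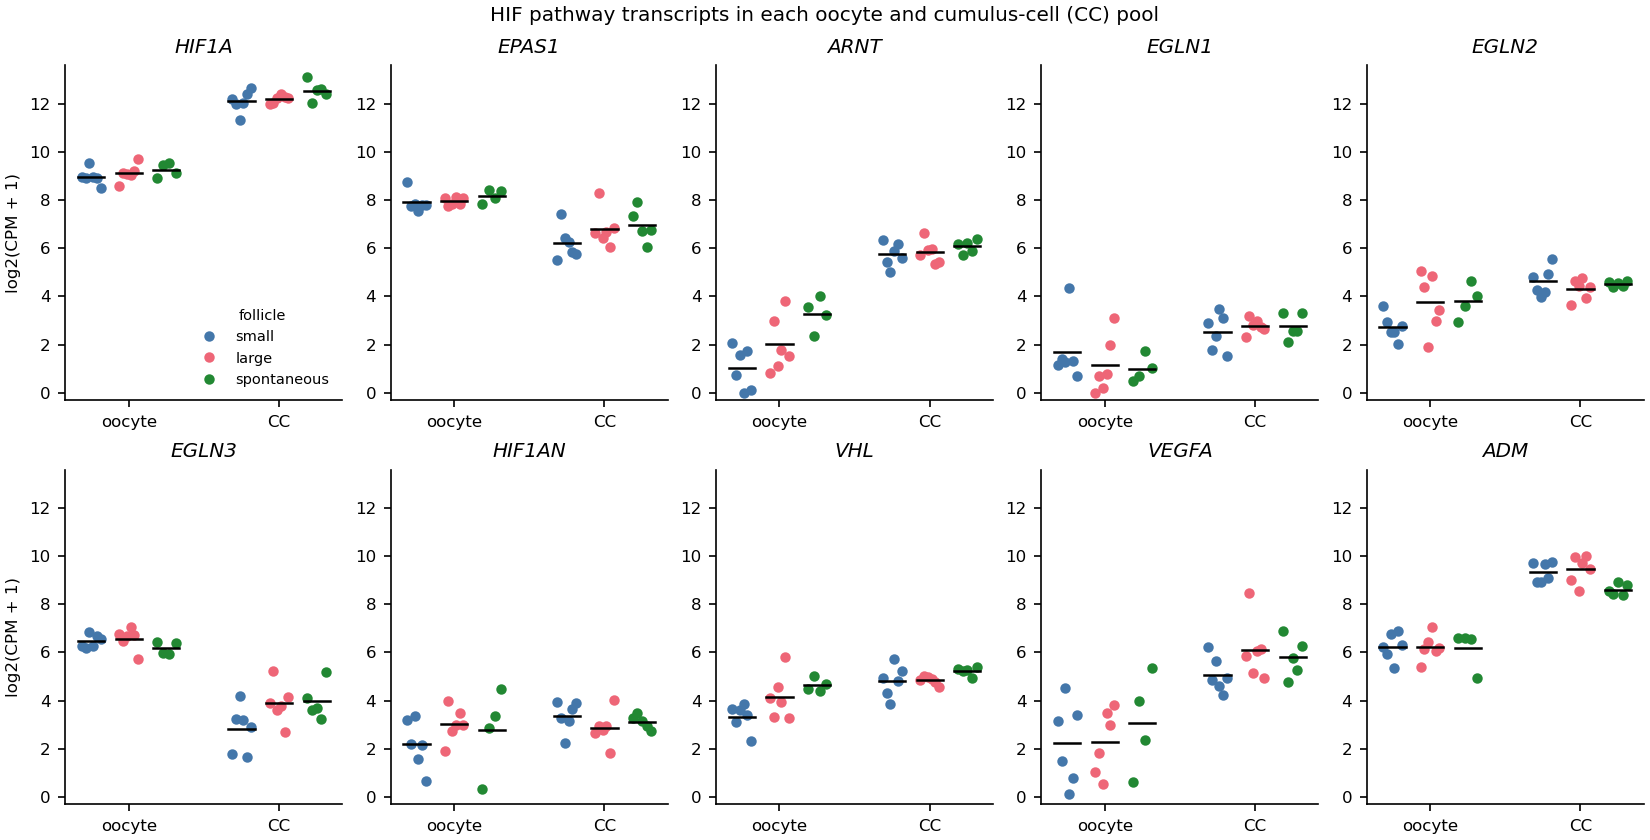
Level of each of the 10 transcripts as log2(CPM + 1), with 1 point per pool, in 16 oocyte pools (left of each panel) and 17 CC pools (right), coloured by follicle classification, with horizontal bars for class means. HIF1A, ARNT and ADM were higher in every CC pool and EGLN3 in every oocyte pool.

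Part of the spread of HIF1A among oocyte pools went with the cumulus markers in those pools. Over the 16 oocyte pools HIF1A rose with the summed cumulus markers on log2 scales (Pearson r = 0.73, permutation p = 0.00128, adjusted p = 0.00512 over 4 members looked at; Spearman rho = 0.59, permutation p = 0.0189, adjusted p = 0.0378). Without the 2 pools farthest from the median marker level r was 0.58, within the small pools 0.82 and within the large pools 0.75. With the 8 markers left after VCAN and HAS2 the relation was closer (r = 0.88, permutation p = 2e-05, adjusted p = 8e-05; rho = 0.76, permutation p = 0.00116, adjusted p = 0.00464; 0.81 without the 2 farthest pools). ADM also rose with the full sum (r = 0.64, permutation p = 0.00748, adjusted p = 0.0150; rho = 0.61, permutation p = 0.0155, adjusted p = 0.0378; 0.69 without the 2 farthest pools), but not past the threshold with the 8 markers (r = 0.47, permutation p = 0.0654, adjusted p = 0.0872; rho = 0.36, permutation p = 0.169, adjusted p = 0.169). ARNT (r = 0.19, permutation p = 0.468; rho = 0.21, permutation p = 0.421) and VEGFA (r = 0.39, permutation p = 0.136; rho = 0.44, permutation p = 0.0891) gave no relation past the threshold with the full sum. With the 8 markers ARNT again gave none (r = 0.40, permutation p = 0.122; rho = 0.43, permutation p = 0.0961), and VEGFA passed on ranks only (r = 0.54, permutation p = 0.0320, adjusted p = 0.0640; rho = 0.63, permutation p = 0.0101, adjusted p = 0.0203; r = 0.46 without the 2 farthest pools). These relations and the split of the markers were chosen after the values were seen. In bulk pools a share of CC RNA and a level in the oocyte itself cannot be told apart, nor can fewer cells of a type and less RNA per cell. The full sum did not separate the classes, with medians of 1201, 1082 and 1431 CPM in small, large and spontaneous oocyte pools and overlapping ranges.

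**Figure D2:**
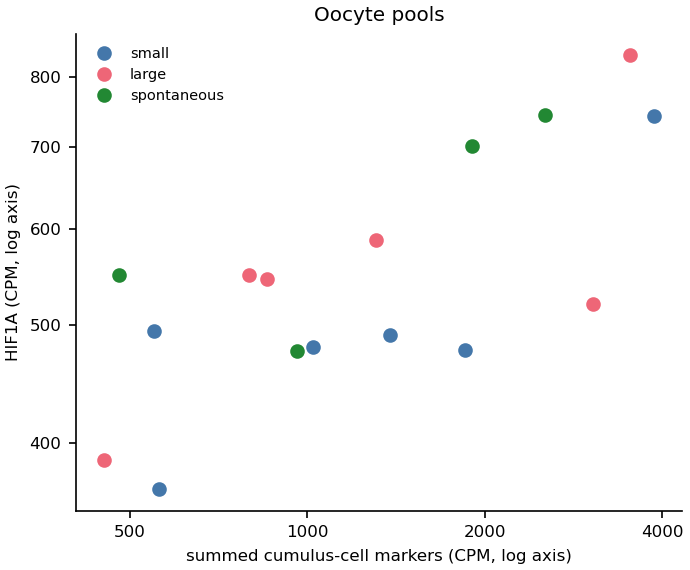
HIF1A against the sum of 10 cumulus and granulosa markers in the 16 oocyte pools, both in CPM on log axes, 1 point per pool. HIF1A was lowest (366 and 387 CPM) in pools with marker sums of 560 and 452 CPM and highest (833 CPM) in a pool with 3527 CPM.

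Next, the follicle classifications were compared within each cell type, which asks whether follicle size at an induced surge, or a spontaneous surge, goes with a different transcript level. A transcript was called at a nominal p of 0.01 or less in limma on log2(CPM + 1), as the study used a nominal threshold of this kind, and Benjamini-Hochberg adjusted p-values over all retained transcripts are given beside it. Fold changes are on that scale and understate the changes of low transcripts. None of the members had an adjusted p under 0.05 in this test.

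In oocytes, 1 of 9 members was called from small to spontaneous follicles, where 0.774% of 10076 transcripts were, and it was ARNT. ARNT reached 5 CPM in 5 oocyte pools, all of them large or spontaneous, so it passed the filter only through those classes. The 4 spontaneous oocyte pools had 11, 4.05, 15.1 and 8.36 CPM of ARNT, while the 6 small pools ran from 0 to 3.16 CPM with a median of 1.31. All spontaneous pools were above all small pools, and pools failed to overlap for 0.903% of transcripts. The means were 1.37 ± 1.30 and 9.62 ± 4.63 CPM, a log2 fold change of 2.25 ± 0.76 (SE) in limma (p = 0.00589, adjusted p = 0.915, exact permutation p = 0.00476, which is the lowest possible with 6 and 4 pools). Large pools lay between, from 0.743 to 13.1 CPM (median 2.14), and overlapped with both. The log2 fold change stayed between 2.01 and 2.57 with any 1 pool left out, but the call was lost in 6 of these 10 fits (without small replicate 2, 4 or 6 or spontaneous replicate 1, 3 or 4). Without small replicate 2 it was lost only because a call in oocytes also had to hold without small replicate 3. The call was lost too with edgeR's quasi-likelihood test (estimate 2.76 on the log2 scale, adjusted p = 0.999) and DESeq2 (estimate 2.77, adjusted p = 0.676) on the whole reads behind the CPM. Over all its alternatives the adjusted p was 0.676 to 0.999.

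VHL was the other member whose small and spontaneous oocyte pools did not overlap. The spontaneous pools had 21.0, 31.6, 19.9 and 24.9 CPM and the small pools 3.96 to 13.4 CPM (median 10.4). The means of 24.4 ± 5.27 and 9.54 ± 3.35 CPM gave a log2 fold change of 1.32 ± 0.55 (limma p = 0.0237, adjusted p = 0.987, exact permutation p = 0.00476), which was not called. EGLN2 had means of 6.03 ± 2.74, 16.6 ± 11.9 and 14.2 ± 7.31 CPM in the small, large and spontaneous classes, and neither the difference between small and large (limma p = 0.0835, adjusted p = 0.997, exact permutation p = 0.0758) nor that between small and spontaneous (limma p = 0.107, adjusted p = 0.987, exact permutation p = 0.0143) was called.

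None of the 9 members was called in oocytes from small to large follicles, where 0.655% of transcripts were, or from large to spontaneous follicles, where 0.943% were. At an unadjusted p under 0.05 the transcripts made up 4.11% and 4.87%, and no member was among them, nor did edgeR or DESeq2 call one. Neither alpha subunit was called. Class means of HIF1A were 508 ± 125, 570 ± 146 and 618 ± 126 CPM in small, large and spontaneous pools, and those of EPAS1 249 ± 91.7, 247 ± 27.6 and 292 ± 51.7 CPM. EGLN3 means were 89.3 ± 16.6, 97.5 ± 26.0 and 72.1 ± 13.2 CPM, and HIF1AN means 4.54 ± 3.47, 7.89 ± 4.12 and 9.37 ± 9.03 CPM. ADM had means of 79.8 ± 29.2, 77.5 ± 29.8 and 78.7 ± 32.7 CPM and log2 fold changes of -0.07 to -0.04. VEGFA ranged from 0.0818 to 22.3 CPM within the small pools alone. EGLN1 was too low for the test, with medians of 1.46, 0.683 and 0.833 CPM and exact permutation p of 0.605 to 0.738 across the 3 comparisons.

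In CC, ADM was the only member called, and it was lower after a spontaneous surge than after an induced surge. The 5 spontaneous pools had 373, 341, 480, 329 and 443 CPM of ADM. Small pools ran from 482 to 868 CPM (median 688) and large pools from 374 to 1015 CPM (median 768). Every spontaneous pool was below every small pool, although the nearest pools were only 480 and 482 CPM, whereas 1 large pool fell among the spontaneous ones. From small to spontaneous the mean went from 675 ± 186 to 393 ± 65.8 CPM (log2 fold change -0.75 ± 0.20 SE, limma p = 0.00159, adjusted p = 0.295, exact permutation p = 0.0108). From large to spontaneous it went from 742 ± 263 to 393 ± 65.8 CPM (log2 fold change -0.84 ± 0.23 SE, limma p = 0.00217, adjusted p = 0.519, exact permutation p = 0.0238). These comparisons share the spontaneous pools. Between small and large pools the log2 fold change of 0.09 ± 0.25 was not called (limma p = 0.706, adjusted p = 0.999, exact permutation p = 0.582).

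A lower level was the less common direction in these comparisons. From small to spontaneous CC 2.38% of 9712 transcripts were called, but only 0.103% as lower, and 0.0618% were lower without overlap. From large to spontaneous CC 1.66% were called and 0.206% as lower. The median transcript was 0.16 higher on the log2 scale in spontaneous than in small pools and 0.11 higher than in large pools, and median-of-ratios scaling brought these shifts to 0.01 and 0.01. With that scaling the ADM fold changes were -0.90 and -0.94, and without the mitochondrially encoded genes, whose share had medians of 23.5, 21.4 and 15.6% in small, large and spontaneous pools, they were -0.92 and -0.90. ADM was called in each of the 19 alternative fits of either comparison. Its adjusted p ran from 7.54e-05 to 0.605 for the small pools and from 0.0209 to 0.938 for the large pools, with the lowest value from DESeq2 in both.

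**Figure D3:**
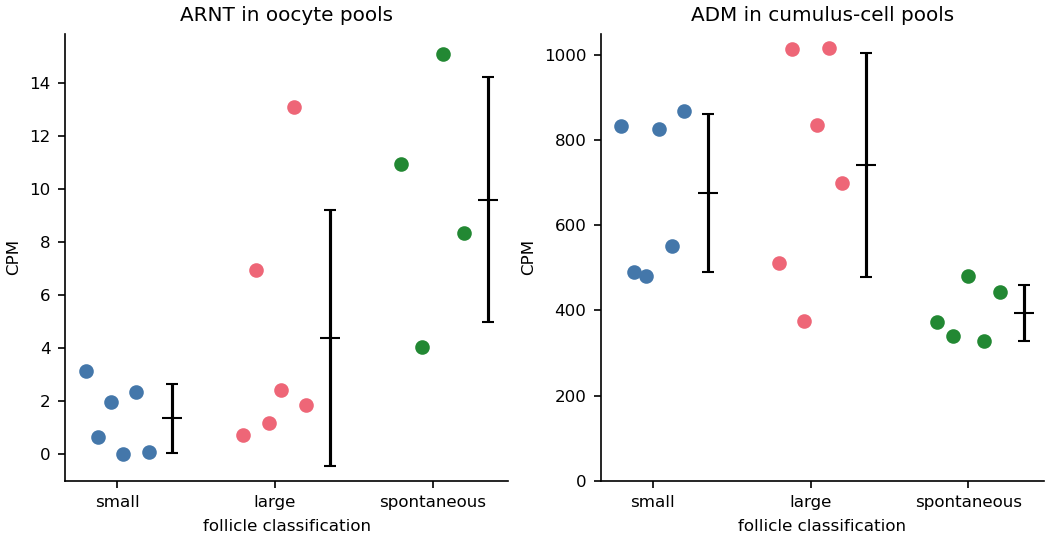
CPM of ARNT in oocyte pools and of ADM in CC pools by follicle classification, with 1 point per pool and the mean ± SD beside the points. ARNT in the 4 spontaneous oocyte pools (4.05 to 15.1 CPM) lay above the 6 small pools, and ADM in the 5 spontaneous CC pools (329 to 480 CPM) lay below the 6 small pools.

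The other targets among the members pointed upward in CC from small follicles, without being called. EGLN3 was at 2.14 to 17.3 CPM (median 7.30) in small pools and at 5.40 to 36.3 CPM (median 13.4) in large pools. Spontaneous pools had 16.5, 11.3, 12.0, 8.53 and 35.1 CPM, so that all 3 classes overlapped. The log2 fold changes of EGLN3 were 1.07 ± 0.46 from small to large (limma p = 0.0307, adjusted p = 0.999, exact permutation p = 0.0823) and 1.15 ± 0.45 from small to spontaneous (limma p = 0.0202, adjusted p = 0.492, exact permutation p = 0.0714). VEGFA was at 18.0 to 73.0 CPM (median 28.5) in small and 30.0 to 358 CPM (median 61.1) in large pools, and the spontaneous pools had 117, 26.7, 53.7, 37.9 and 77.2 CPM. Its log2 fold change from small to large was 1.03 ± 0.46 (limma p = 0.0372, adjusted p = 0.999, exact permutation p = 0.115), and it was 0.55 without large replicate 2, the pool at 358 CPM. From small to spontaneous it was 0.73 ± 0.37 (limma p = 0.0669, adjusted p = 0.607, exact permutation p = 0.171).

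Of the factor subunits in CC, EPAS1 had the largest differences from small pools, none of them called. It was at 44.8 to 168 CPM (median 65.7) in small and 65.0 to 309 CPM in large pools, while spontaneous pools had 160, 241, 105, 65.5 and 108 CPM. The log2 fold change from small to spontaneous was 0.76 ± 0.33 (limma p = 0.0349, adjusted p = 0.550, exact permutation p = 0.139) and that from small to large 0.61 ± 0.34 (limma p = 0.0819, adjusted p = 0.999, exact permutation p = 0.316), the latter being 0.32 without large replicate 2, the pool at 309 CPM. From large to spontaneous the EPAS1 difference was 0.14 ± 0.35 (limma p = 0.688, adjusted p = 0.943, exact permutation p = 0.868). HIF1A was at 8847, 4148, 6126, 6294 and 5410 CPM in spontaneous pools against 4084 to 5366 CPM in large and 2568 to 6460 CPM in small pools, with overlap throughout. Its log2 fold change was 0.45 ± 0.25 from small (limma p = 0.0945, adjusted p = 0.673, exact permutation p = 0.117) and 0.35 ± 0.20 from large (limma p = 0.0977, adjusted p = 0.750, exact permutation p = 0.0455). ARNT in CC had means of 55.1 ± 18.7, 58.9 ± 21.2 and 67.4 ± 12.3 CPM, and none of its differences was called.

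The hydroxylases EGLN1, EGLN2 and HIF1AN were not called in CC, and their log2 fold changes lay between -0.49 and 0.25. VHL was at 38.2, 36.9, 37.8, 29.6 and 41.7 CPM in spontaneous pools and at 22.6 to 31.7 CPM in large pools, which overlapped in that 1 spontaneous pool was at 29.6 CPM. Its log2 fold change from large was 0.38 ± 0.18 (limma p = 0.0536, adjusted p = 0.699, exact permutation p = 0.00866). None of the 10 members was called from small to large CC, where 0.813% of transcripts were called. Of the transcripts 4.0% had an unadjusted p under 0.05 there, and EGLN3 and VEGFA were the members among them.

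**Figure D4:**
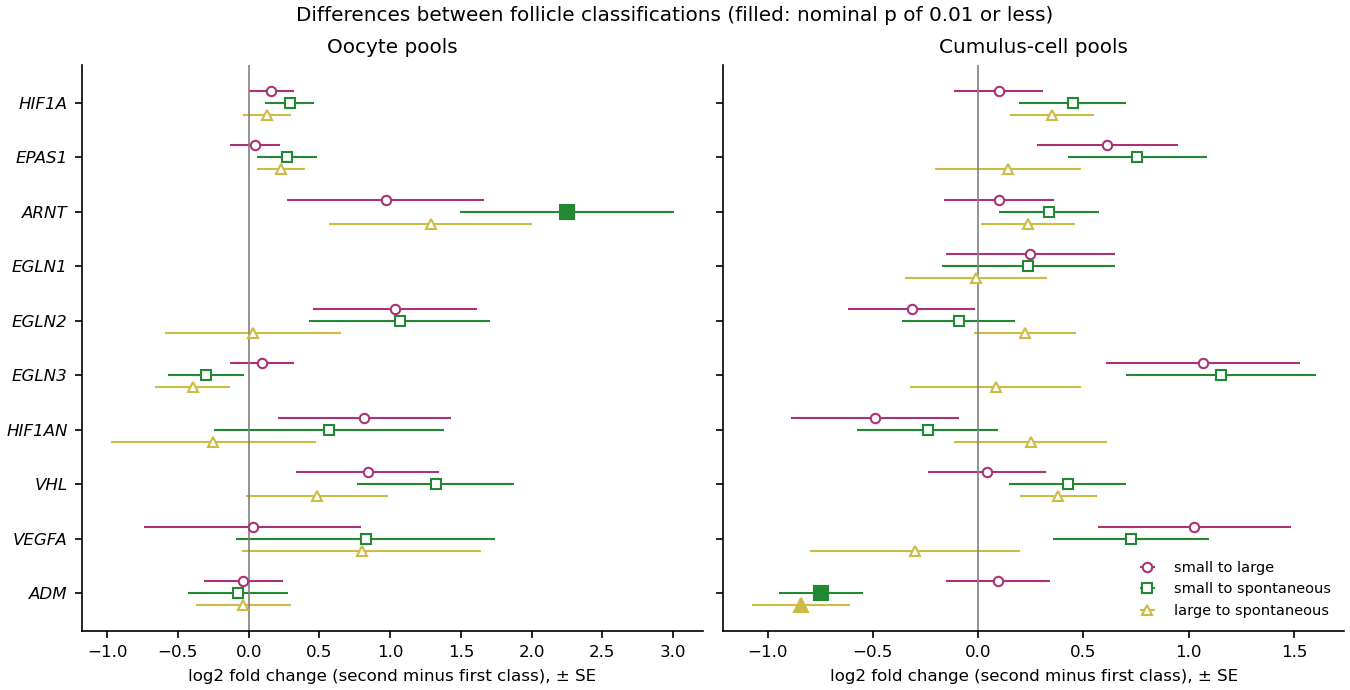
Log2 fold change ± SE of each member in the 3 pairwise comparisons, in oocyte pools (left, EGLN1 not fitted) and CC pools (right), on log2(CPM + 1), with filled symbols for a nominal p of 0.01 or less. The filled symbols are ARNT in oocytes (2.25) and ADM in CC (-0.75 and -0.84).

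VEGFA, ADM and EGLN3 were also compared with each other across pools, and none of the 6 pairs (3 in each cell type) passed the threshold after adjustment. The strongest was VEGFA with EGLN3 over 17 CC pools (r = 0.55, permutation p = 0.0243, adjusted p = 0.146; rho = 0.50, permutation p = 0.0418, adjusted p = 0.251). Without the 2 pools farthest from the median of VEGFA (small replicate 5 and large replicate 2) r was 0.17, so the relation rested on them. With class means removed r was 0.42. ADM showed r = 0.28 with VEGFA (permutation p = 0.292, adjusted p = 0.767; rho = 0.15, permutation p = 0.569, adjusted p = 0.741) and r = -0.17 with EGLN3 (permutation p = 0.511, adjusted p = 0.767; rho = -0.23, permutation p = 0.377, adjusted p = 0.741) in CC. In the 16 oocyte pools the 3 pairs had r of -0.11 to 0.19, with adjusted p of 0.767 to 0.966.

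A wider list of 32 HIF targets that are not enzymes of the glycolytic chain was then described. It held genes that feed, drain or regulate glycolysis (SLC2A1, SLC2A3, SLC16A3, PFKFB3, PFKFB4 and PDK1), so it is not separate from glycolysis. In CC 26 of them were retained, and from small to large follicles 24 of the 26 were higher, with a median log2 fold change of 0.58, beside 56.0% of all transcripts higher and a median of 0.05. From small to spontaneous follicles 25 of 26 were higher with a median of 0.59, beside 71.9% and 0.16 for all transcripts. These comparisons share the small pools. From large to spontaneous follicles 16 of 26 were higher (median 0.06, all transcripts 0.11). With any 1 pool left out, 23 to 25 were higher from small to large and 25 to 26 from small to spontaneous. Without CC small replicate 3, 44.3% of all transcripts were higher from small to large, beside 24 of the 26. Summed cumulus markers also differed, with ranges of 11620 to 22367 CPM (small), 19155 to 32288 CPM (large) and 17159 to 28047 CPM (spontaneous). Most of that sum was VCAN, which the study reported as higher in large than in small CC. The sum is therefore not a measure of cell content alone. The part of these markers in the direction of the list was not tested.

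SLC2A1 had the smallest p of that list in both comparisons with small pools. The study had already reported SLC2A1 and SLC16A3 as higher in large than in small CC, from these same pools. Their limma calls in that comparison therefore repeat a known result. The study required a call in both edgeR and DESeq2. On the recovered reads SLC2A1 was called in both. SLC16A3 was called in neither, with log2 fold changes of 0.87 (edgeR) and 0.86 (DESeq2), so its reported call was not reproduced with those tests. SLC2A1 (GLUT1), the basal glucose transporter, rose from 113 ± 13.1 CPM in small to 236 ± 88.1 CPM in large CC pools without overlap (log2 fold change 0.99 ± 0.21, limma p = 0.000108, adjusted p = 0.522, exact permutation p = 0.00216), and was called in all 20 alternative fits. It was 193 ± 50.4 CPM in spontaneous pools, again above all small pools (log2 fold change 0.74 ± 0.18, limma p = 0.000714, adjusted p = 0.262, exact permutation p = 0.00216), a call kept in 18 of 19 alternatives. SLC16A3, which exports lactate, rose from 39.2 ± 21.5 to 76.4 ± 14.9 CPM from small to large (log2 fold change 1.10 ± 0.29, limma p = 0.00124, adjusted p = 0.999, exact permutation p = 0.00866), with a call in 18 of 20 alternatives. BNIP3, a mitochondrial protein of mitophagy, rose from 163 ± 60.4 CPM in small to 301 ± 124 CPM in large (log2 fold change 0.85 ± 0.29, limma p = 0.00831, adjusted p = 0.999, exact permutation p = 0.0325) and 293 ± 75.0 CPM in spontaneous pools (log2 fold change 0.89 ± 0.25, limma p = 0.00257, adjusted p = 0.345, exact permutation p = 0.0152). Of the alternatives 7 of 20 called BNIP3 in the former comparison and 14 of 19 in the latter. Both BNIP3 calls were lost with median-of-ratios scaling, without the mitochondrially encoded genes, in edgeR and in DESeq2. SLC2A3 (GLUT3), a high-affinity glucose transporter, rose from 114 ± 69.6 to 222 ± 77.5 CPM from small to spontaneous (log2 fold change 1.10 ± 0.36, limma p = 0.00659, adjusted p = 0.395, exact permutation p = 0.0411), but was called in only 6 of 19 alternatives, and its fold change was 0.71 in edgeR and 0.69 in DESeq2. The other calls from small to spontaneous were P4HA1, a collagen prolyl hydroxylase (0.52 ± 0.17, called in 7 of 19 alternatives), and the MYC antagonist MXI1 (0.56 ± 0.19, called in 5 of 19). In all, 3 of 26 were called from small to large and 5 from small to spontaneous, each of them higher than in small pools, as were 0.69% and 2.28% of all transcripts. Pools lay wholly above the small pools for 0.206% and 1.1% of transcripts. Between large and spontaneous pools 0 of 26 were called in limma, with 1 at an unadjusted p under 0.05, and none with edgeR or DESeq2. With median-of-ratios scaling the counts against small pools were 2 and 1, and without the mitochondrially encoded genes 2 and 0, while 22 to 24 of 26 were still higher in each comparison with small pools.

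In oocytes the same list was spread around 0. Of 23 retained, 13 were higher in large than in small pools, 15 in spontaneous than in small and 14 in spontaneous than in large, with medians of 0.01, 0.09 and 0.13. The list had 1 call, in the last comparison, where 0.546% of transcripts were called as lower and 0.496% were lower without overlap. CA9, a membrane carbonic anhydrase, fell from 76.9 ± 16.2 CPM in large to 40.7 ± 10.3 CPM in spontaneous pools without overlap (log2 fold change -0.91 ± 0.29, limma p = 0.00416, adjusted p = 0.938, exact permutation p = 0.00952), and 14 of 18 alternatives called it.

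**Figure D5:**
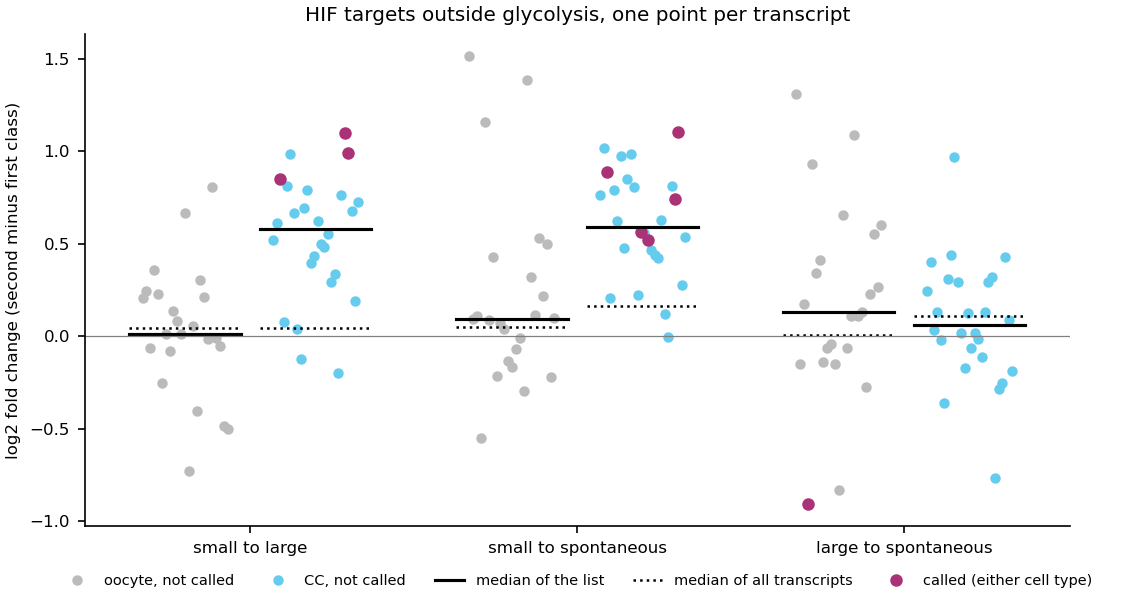
Log2 fold changes of HIF targets other than enzymes of the glycolytic chain in 23 oocyte and 26 CC transcripts for the 3 comparisons, 1 point per transcript, with the median of the list (solid) and of all transcripts (dotted), and called transcripts enlarged. In CC the list medians were 0.58 and 0.59 against small follicles and 0.06 between large and spontaneous.

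The transcripts that act on HIF but are not members were not called. Of 16 such regulators (among them the VHL partners ELOB, ELOC, CUL2 and RBX1, the coactivators EP300 and CREBBP, and CITED2, which competes for them), 14 were retained in each cell type and 0 were called in limma in all 6 comparisons, with list medians of -0.09 to 0.13, 4 of 84 tests at an unadjusted p under 0.05 and no call with edgeR or DESeq2. Of 14 ligands, receptors and coreceptors of VEGF and adrenomedullin, 5 were retained in oocytes and 7 in CC, and 0 were called by limma, edgeR or DESeq2, with 4 of 36 limma tests at an unadjusted p under 0.05. The adrenomedullin receptor CALCRL was at 0 to 11 CPM in CC with a median of 2.85. The receptor partners RAMP1 and RAMP2 had medians of 0.614 and 1.23 CPM there. RAMP3 was not listed under that symbol for CC, so its level there is unknown. The VEGF receptors FLT1 (medians 83.0 CPM in oocytes and 52.4 CPM in CC) and KDR (25.3 and 26.3 CPM) were found in both. Endothelial markers summed to 73.3 to 143 CPM in oocyte pools, mostly from TEK, and to 1.42 to 35.5 CPM in CC pools.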

How the data were processed

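Pools of 4 oocytes or their CC were sequenced after Ovation RNA-Seq V2 amplification. Per the labels and the study's methods, the authors trimmed reads, aligned them to bovine UMD3.1 with Hisat2, counted genes with featureCounts and deposited CPM, counts scaled to a total of 1000000 per pool. Whole reads were recovered from the CPM for all values (tolerance 0.05 read). The main test was limma 3.58.1 with trend on log2(CPM + 1), two-sided, within a cell type, for genes that reached 5 CPM in 4 or more pools (oocytes) or 5 or more (CC). A call needed a nominal p of 0.01 or less, and in oocytes a difference from small pools also had to be called when small replicate 3 was left out. Adjustment was by Benjamini-Hochberg over all retained genes. Exact permutation tests used mean CPM, and correlations used 100000 permutations of samples. The study called transcripts with edgeR and DESeq2 on counts, and here edgeR 4.0.16 and DESeq2 1.42.0 on the recovered reads were alternatives, beside a pseudocount of 0.1, no filter, median-of-ratios scaling, 13 mitochondrially encoded genes left out, 1 fit of all classes, a replicate block and leaving out each pool. The scripts were tested on simulated data.

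Groups follow the labels, which do not say whether pools share cows. The study's methods describe aspiration of only the largest follicle of a cow, and CC pools from the same complexes as the oocyte pools. The p-values rest on the spread between these pools of 4 complexes, not on that between single cows. No 2 pools agreed within sampling noise (chi-square over its degrees of freedom was 13.4 or more). Members, lists and tests were chosen with earlier results of these data known. Named genes were all members, at most 3 called genes of a list per comparison (smallest p), the 3 best correlated genes per member, and, chosen after their values were seen, receptor and marker genes named for their levels and the called P4HA1 and MXI1. Red blood cell markers summed to at most 4.18 CPM, white blood cell markers to 27.5 to 214 CPM in CC and 124 to 262 CPM in oocytes (mostly CSF1R), and theca markers to 270 to 2772 CPM in CC. No sequences or coordinates are given, as no reference of the build was used here. The ± values are SDs over pools or limma SEs. The SDs measure the spread between pools. The SEs are errors of a log2 fold change, from variances between pools that limma moderated over all retained genes. Floors of 3 reads cover counting error only.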

Additional observations from a re-analysis of the deposited data

Results flagged for a closer look

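Of 60 groups of pools (10 members in 3 classes of 2 cell types) 5 held a pool that stood apart from the rest by Dixon's 95% criterion on log2(CPM + 1), which chance meets in about 1 in 20 groups. The values below are given in CPM. EPAS1 was at 434 CPM in oocyte small replicate 1, against 184 to 225 CPM in the other small pools. EGLN1 was at 19.2 CPM in oocyte small replicate 4, against 0.603 to 1.63 CPM. ADM was at 29.7 CPM in oocyte spontaneous replicate 4, against 92.8 to 97.3 CPM, and this was also the pool with the most VEGFA (39.6 CPM) among oocyte pools. In CC large replicate 2, EPAS1 was at 309 CPM against 65.0 to 113 CPM, and VEGFA at 358 CPM against 30.0 to 69.9 CPM. That pool also had the highest ARNT (98.2 CPM) and EGLN3 (36.3 CPM) of all CC pools. The cause of these values was not tested.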

How the results depend on the processing

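No pairing of pools by replicate number was detected. The deviations of same-numbered pools from their class means correlated at -0.19 to 0.22, and at most 1 pool per comparison correlated best with its own number. With so few pools this check can miss a weak pairing. The study synchronised its cows in several replicates, and which pools came from which was not known here. With the replicate block ARNT was not called in oocytes from small to spontaneous follicles (0 members, 41 transcripts against 78), and 1 member, EPAS1, was called from small to large CC. In that oocyte comparison the members called were also 0 with a pseudocount of 0.1, edgeR and DESeq2, and 2 with no filter (ARNT and VHL). With no filter VHL was also called from large to spontaneous CC (2 members). Transcripts called moved from 66 to 101 (no filter) and 114 (DESeq2) between small and large oocytes, from 78 to 122 (DESeq2) between small and spontaneous oocytes, from 95 to 148 (no filter) and 181 (DESeq2) between large and spontaneous oocytes, from 79 to 121 (no filter) and 137 (1 fit of all classes) between small and large CC, and from 231 to 126 (median of ratios), 120 (no mitochondrially encoded genes) and 128 (edgeR) between small and spontaneous CC. Without the 2 farthest pools r was 0.0079 for VEGFA and ADM and 0.17 for VEGFA and EGLN3 in CC, and 0.58 for HIF1A and cumulus markers in oocytes. Without VCAN and HAS2 among those markers r was 0.88 for HIF1A and 0.47 for ADM.

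With 1 pool left out at a time, members called ranged from 0 to 1 for oocytes from small to spontaneous follicles, from 0 to 1 for small to large CC (EGLN3, without small replicate 3 or large replicate 5) and from 1 to 2 for small to spontaneous CC (EPAS1 without small replicate 2 or spontaneous replicate 4, EGLN3 without small replicate 3). Transcripts called ranged from 49 (without spontaneous replicate 3) to 133 (without small replicate 3) in the former, from 75 to 144 (without spontaneous replicate 2) between large and spontaneous oocytes, from 52 (without small replicate 5) to 114 between small and large CC, from 144 (without spontaneous replicate 5) to 313 between small and spontaneous CC, and from 91 (without spontaneous replicate 4) to 236 between large and spontaneous CC, where they were 100 without spontaneous replicate 5.

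The differences that changed sign were uncalled. Between small and large oocytes EPAS1 went to -0.041 (edgeR) and -0.047 (DESeq2) and VEGFA to -0.32 and -0.33. Between large and spontaneous oocytes EGLN2 went to -0.25 (block), -0.24 (edgeR) and -0.23 (DESeq2), HIF1AN to 0.23 and 0.24 and ADM to 0.0093 and 0.019 with edgeR and DESeq2. ADM between small and spontaneous oocytes was 0.11 with the block. Between small and large CC, VHL was -0.0099 (median of ratios), -0.064 (no mitochondrially encoded genes), -0.077 (edgeR) and -0.085 (DESeq2), and without those genes HIF1A was -0.016, ARNT -0.012 and ADM -0.019. EGLN2 between small and spontaneous CC was 0.092 with the block. Between large and spontaneous CC, EGLN3 was -0.011 (median of ratios), -0.067 (edgeR) and -0.067 (DESeq2) and EPAS1 -0.039 (edgeR) and -0.039 (DESeq2). With 1 pool left out the ranges that crossed 0 were, between small and large oocytes, -0.032 to 0.21 for EPAS1, -0.00038 to 0.26 for EGLN3, -0.40 to 0.49 for VEGFA and -0.22 to 0.13 for ADM. Between small and spontaneous oocytes they were -0.014 to 1.37 for HIF1AN and -0.26 to 0.34 for ADM, and between large and spontaneous oocytes -0.34 to 0.32 for EGLN2, -0.83 to 0.56 for HIF1AN and -0.20 to 0.37 for ADM. In CC they were, between small and large, -0.057 to 0.21 for HIF1A, -0.060 to 0.22 for ARNT, -0.15 to 0.22 for VHL and -0.013 to 0.27 for ADM. They were -0.22 to 0.092 for EGLN2 between small and spontaneous, and -0.097 to 0.43 for EPAS1, -0.15 to 0.16 for EGLN1, -0.22 to 0.35 for EGLN3 and -0.57 to 0.18 for VEGFA between large and spontaneous. The causes were not tested. Depth limits EGLN1, ARNT and VEGFA in oocytes, where some pools held fewer than 3 reads' worth (0.391 CPM or less).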

Other observations

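Transcripts whose log2(CPM + 1) followed a member most closely over all pools of a cell type are given as a description, from 10076 ranked transcripts over 16 oocyte pools and 9712 over 17 CC pools, which share class, depth and scaling. In CC, ADM went most closely with the splicing kinases CLK1 (r = 0.87) and CLK4 (r = 0.86) and with ITGA10 (r = 0.83). HIF1A in CC went with TTC39C (r = 0.90), the sheddase ADAM10 (r = 0.88) and ZDHHC2 (r = 0.88). EPAS1 in CC went with the protease inhibitor TIMP1 (r = 0.83), IGFBP3 (r = 0.81) and ETV6 (r = 0.81). The named transcripts nearest to EGLN3 in CC were ERO1A (r = 0.80), an oxidase of the endoplasmic reticulum, and B4GALT1 (r = 0.80). In oocytes, HIF1A went most closely with TNFAIP6 (r = 0.88), a cumulus marker with a median of 7.82 CPM there, then with YIPF6 and HSPB1 (r = 0.85 each). ARNT in oocytes went with TCAM1 (r = 0.83) and the cell cycle inhibitor CDKN1A (r = 0.82), and VHL with APLF (r = 0.80) and the germ cell RNA-binding protein YBX2 (r = 0.76).

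Among the members themselves, the closest to EPAS1 in CC was EGLN3 (r = 0.69), the closest to ARNT was VHL in both cell types (r = 0.62 in each), and the closest to EGLN2 in CC was HIF1AN (r = 0.64).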
